A study of Mus musculus with 14 samples.

Results

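The 3 Cdx genes of the mouse, Cdx1, Cdx2 and Cdx4, were followed through 14 RNA-seq libraries of embryonic stem cells (ESCs) and of cells derived from them. They were chosen by gene symbol from the 24054 genes listed in every library, and they were selected on levels in these same libraries that were already known, so their own levels and fold changes are given as a description without a test. All 6 groups were mouse ESC lines or their derivatives with altered Foxa2, the gene of a forkhead pioneer factor of endoderm. In d0con (Foxa2-Venus-KO/+, 2 libraries) and d0ko (Foxa2-Venus-KO/Foxa2-Venus-KO, 2 libraries) undifferentiated ESCs were held on red-fluorescent embryonic fibroblast feeders without LIF and sorted as Cherry-negative to deplete the feeders. In d3con and d3ko (the same genotypes, 3 libraries each) the cells were differentiated for 3 days in medium with 12 ng/ml Activin A, on a feeder layer releasing Wnt3a, and sorted as Venus-positive. The knockout allele carries a Venus reporter in place of the Foxa2 coding region, so the sort selects cells with an active Foxa2 promoter in both genotypes and the controls also carry this allele. Each genotype was represented by only 2 clones, and replicates 1 and 3 of each day 3 group came from the same clone. In d2-FVFn and d2-FVFp (2 libraries each) ESCs of the line T119, which carries a doxycycline-inducible Foxa2-Venus transgene (TetON-Foxa2-Venus), were kept in LIF and serum without feeders, given 40 ng/ml doxycycline for 48 h and sorted as Venus-negative or Venus-positive, so both groups had received doxycycline.

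Cdx proteins are homeobox transcription factors related to Drosophila caudal. In the embryo they are expressed from the primitive streak into the tail bud, where Wnt, Fgf and retinoic acid signals induce them and where they activate Hox genes of the trunk and tail. Cdx2 is also known as a determinant of trophectoderm, the outer layer of the blastocyst, and of the intestinal epithelium, and Cdx4 as a regulator of embryonic blood formation.

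The libraries held between 14142788 and 27278237 counts assigned to genes. Foxa2 itself stood at 34.81 to 58.64 TPM (a level scaled for transcript length and for library size) in d3con against 0.11 to 0.19 TPM in d3ko, and at 159.81 and 168.57 TPM in d2-FVFp against 2.01 and 2.99 TPM in d2-FVFn, so the Foxa2 levels matched the labels. The correlation between replicates on a log2 scale was lowest in d3ko (Pearson r from 0.928) and at least 0.958 in the other groups. The d3con libraries held summed TPM of 802.5 to 1072.67 for 8 endoderm markers, whereas the d3ko libraries held 38.03 to 194.26. Fibroblast transcripts were present after the sort. The summed TPM of 8 feeder fibroblast markers ranged from 11.8 to 135.31 at day 0 and from 52.71 to 365.75 at day 3, against 2.73 to 3.95 in the line without feeders. Replicates 1 and 2 of each day 0 and day 3 group came from different clones, so their spread includes that between clones. Nothing in the labels says that the other replicates came from separate cultures. The p-values below therefore measure the spread between these libraries, which may be partly technical.

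In GRCm38 coordinates, the assembly also called mm10, Cdx2 lies on chromosome 5 (147300900 to 147307249) and Cdx4 on the X chromosome (103321398 to 103330224). Both are annotated as protein-coding, and no other gene of the RefSeq table overlaps them.

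The promoter windows of Cdx2 and Cdx4 are the 250 bases before each annotated start (RefSeq sequence, GRCm38.p6). They are shown here because Cdx2 was the member that stood apart in cells with induced Foxa2. Cdx4 also had its highest mean there, with overlapping groups. Capitals mark matches to 4 motifs that were chosen after these windows had been read.
Cdx2 (chr5:147307250-147307499, minus strand): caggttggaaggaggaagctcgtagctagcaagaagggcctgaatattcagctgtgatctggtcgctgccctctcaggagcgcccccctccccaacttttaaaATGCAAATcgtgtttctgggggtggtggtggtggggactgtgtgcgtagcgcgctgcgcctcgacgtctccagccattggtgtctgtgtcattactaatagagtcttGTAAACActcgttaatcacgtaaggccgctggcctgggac
Cdx4 (chrX:103321148-103321397, plus strand): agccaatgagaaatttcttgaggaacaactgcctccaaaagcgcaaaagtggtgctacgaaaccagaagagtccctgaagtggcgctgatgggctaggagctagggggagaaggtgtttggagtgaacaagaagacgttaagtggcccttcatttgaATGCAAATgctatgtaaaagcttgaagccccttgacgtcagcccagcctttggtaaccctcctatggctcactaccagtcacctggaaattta
The motifs, searched on both strands, were a forkhead core (TGTTTAC), the octamer bound by POU factors (ATGCAAAT), a TCF/LEF core (CTTTGAT) and a caudal core (CNATAAA). The Cdx2 window held the forkhead core on its opposite strand (GTAAACA), 40 to 34 bases before the start, and an octamer 147 to 140 bases before it. The Cdx4 window held an octamer 93 to 86 bases before the start. These matches did not overlap, and neither window held the TCF/LEF or the caudal letters. Of 32851 promoter windows of this length, 3.17% held the forkhead core, 1.6% the octamer, 3.21% the TCF/LEF core and 9.81% the caudal core. A match is a string of letters and not a measured binding site.

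Cdx1, a protein-coding gene of chromosome 18 (61018862 to 61036199, GRCm38), was the member with the highest level in the day 0 ESCs. The RefSeq gene model Gm52351 overlaps an end of Cdx1, and the counting is not stated to use strand, so reads from a shared stretch cannot be assigned between these models. Cdx1 stood at 8.52 and 6.58 TPM (169 and 117 counts) in the d0con libraries, and at 7 and 3.32 TPM (172 and 73 counts) in the d0ko libraries. The ranges of the 2 genotypes overlapped at day 0. In d3con Cdx1 was at 0.2, 1.15 and 0.18 TPM in replicates 1, 2 and 3, from 4, 21 and 4 counts. In d3ko it was at 15.4, 3.68 and 48.55 TPM, from 241, 62 and 1252 counts. Every d3ko library was higher than every d3con library, and every d3con library was lower than every d0con library. In both day 3 groups the pair of libraries from a shared clone (replicates 1 and 3) were the extremes, the lowest in d3con and the highest in d3ko, while replicate 2, from the other clone, lay nearer to the other genotype. The level of Cdx1 also spread more widely within d3ko than in any other group, with a highest library of 48.55 TPM and a mean of 22.5 ± 23.3 TPM (SD, n = 3), against 0.51 ± 0.554 TPM (SD, n = 3) in d3con, 7.55 ± 1.37 TPM (SD, n = 2) in d0con and 5.16 ± 2.6 TPM (SD, n = 2) in d0ko.

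**Figure D1:**
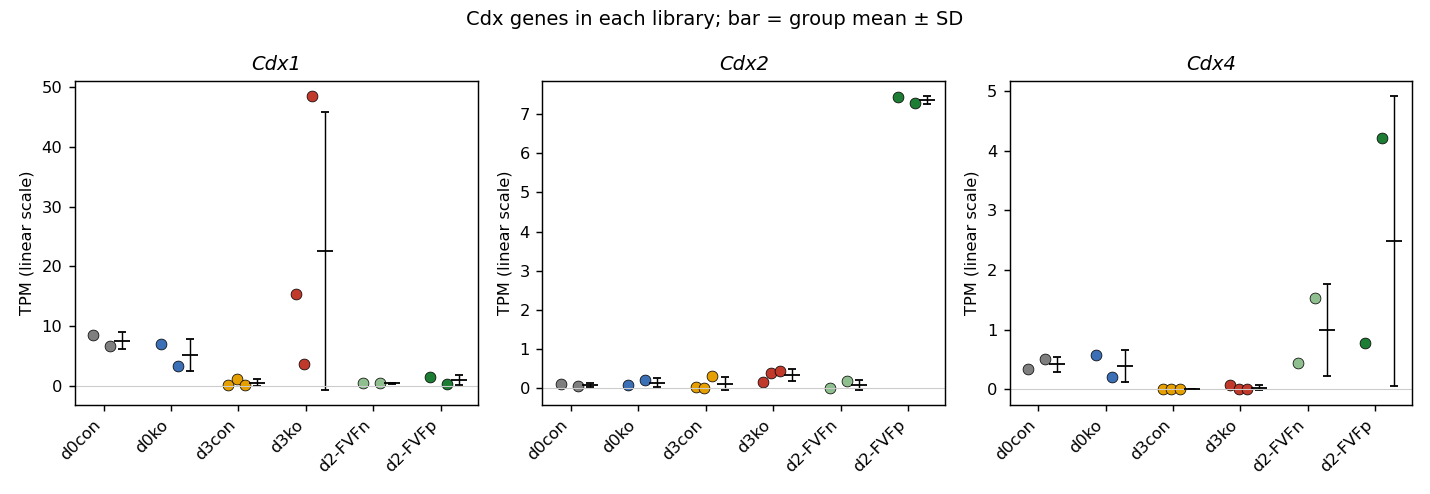
TPM (linear scale, a separate axis range for each gene) of Cdx1, Cdx2 and Cdx4 in each of the 14 libraries by group; points are libraries and bars are group means ± SD. Cdx1 had its highest mean in d3ko (3.68 to 48.55 TPM) and lay at 0.18 to 1.15 TPM in d3con. Cdx2 reached 7.29 and 7.44 TPM only in d2-FVFp, and Cdx4 was at 0 TPM in all 3 d3con libraries.

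The fold changes of Cdx1 were taken from an edgeR fit of the 10 day 0 and day 3 libraries. Cdx1 was the only member with at least 1 CPM (counts scaled to library size) in at least 2 of these libraries, the filter for entering the fit. On the log2 scale Cdx1 was 5.49 (SE 1.06) higher in d3ko than in d3con, a 45.1-fold difference, and it fell by 4.12 (SE 1.06) from d0con to d3con. From d0ko to d3ko its log2 fold change was 1.95 (SE 1.01), with overlapping groups, since d3ko replicate 2 (3.68 TPM) lay between the d0ko libraries. When the replicate number was added to the fit as a block, which pairs day 0 and day 3 libraries of the same clone for numbers 1 and 2, this last value was 1.21. These comparisons share their groups and are not independent of each other. The size rested in part on single libraries. The log2 fold change between d3ko and d3con was 4.26 without d3ko replicate 3 and 6.83 without d3con replicate 2, and that between d3ko and d0ko was 0.72 without d3ko replicate 3. The value between d3con and d0con was -5.45 without d3con replicate 2.

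In the doxycycline line Cdx1 was low in every library. It was at 0.47 and 0.39 TPM (7 counts each) in d2-FVFn and at 1.55 and 0.33 TPM (20 and 5 counts) in d2-FVFp, with overlapping groups, and it did not pass the filter of the 4-library fit. Ordered by mean TPM, Cdx1 ran d3ko, d0con, d0ko, d2-FVFp (0.94 ± 0.863, SD, n = 2), d3con and d2-FVFn (0.43 ± 0.0566, SD, n = 2). Each neighbouring pair in this order overlapped, except d0ko and d2-FVFp, whose lowest and highest libraries were at 3.32 and 1.55 TPM.

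Cdx2 was near the limit of detection outside the induced cells. It had 0 to 14 counts in each of the other 12 libraries, with a highest level of 0.44 TPM in d3ko replicate 3. A count of 0 allows a level of up to about 3 counts, which corresponded to 0.0944 to 0.163 TPM for Cdx2 in these libraries (counting error only). In d0con it was at 0.12 and 0.05 TPM, and in d0ko at 0.07 and 0.22 TPM. In d3con it was at 0.04, 0 and 0.3 TPM, and in d3ko at 0.16, 0.39 and 0.44 TPM. The ranges of these 4 groups overlapped between neighbours, and differences between d3ko and d3con or between days were not detectable at this depth. In d2-FVFn Cdx2 was at 0 and 0.18 TPM (0 and 4 counts), whereas both d2-FVFp libraries stood apart at 7.44 and 7.29 TPM (118 and 136 counts). The mean was 7.37 ± 0.106 TPM (SD, n = 2) in d2-FVFp and 0.09 ± 0.127 TPM (SD, n = 2) in d2-FVFn. In the edgeR fit of these 4 libraries the log2 fold change was 6.1 (SE 0.66), a 68.7-fold difference that rests on only 4 counts in d2-FVFn. It was 5.28 without d2-FVFn replicate 1 and 10.01 without d2-FVFn replicate 2, where the remaining d2-FVFn library had 0 counts and the fitted value is no bound. Without either d2-FVFp library Cdx2 did not pass the filter.

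Cdx4 was low throughout and close to absent at day 3. It had 0 counts in all 3 d3con libraries and in d3ko replicates 2 and 3, and 1 count (0.07 TPM) in d3ko replicate 1, while 3 counts correspond to 0.128 to 0.211 TPM there. At day 0 it was at 0.33 and 0.5 TPM (6 and 8 counts) in d0con and at 0.58 and 0.2 TPM (13 and 4 counts) in d0ko. Every day 0 library was higher than every day 3 library, from 4 to 13 counts each. Cdx4 did not pass the filter in these 10 libraries. In the doxycycline line it was at 0.44 and 1.53 TPM (6 and 25 counts) in d2-FVFn and at 0.77 and 4.21 TPM (9 and 58 counts) in d2-FVFp. The groups overlapped, and replicate 2 was the higher library in both. The edgeR log2 fold change of Cdx4 between d2-FVFp and d2-FVFn was 1.28 (SE 0.84). It was 0.69 without d2-FVFn replicate 1 and 2.03 without d2-FVFp replicate 1. By mean TPM Cdx4 ran d2-FVFp (2.49 ± 2.43, SD, n = 2), d2-FVFn (0.985 ± 0.771), d0con (0.415 ± 0.12), d0ko (0.39 ± 0.269), d3ko (0.0233 ± 0.0404, SD, n = 3) and d3con. Only the step from d0ko to d3ko separated neighbouring groups without overlap.

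By mean TPM Cdx1 was highest in d3ko, and Cdx2 and Cdx4 in d2-FVFp. Only Cdx2 was there set apart from every other group. Cdx1 in d3ko overlapped the day 0 groups, and Cdx4 in d2-FVFp overlapped d2-FVFn. Across the 14 libraries, which fall into separate lines and days, Pearson r of log2(TPM + 1) was -0.217 between Cdx1 and Cdx2, -0.346 between Cdx1 and Cdx4 and 0.657 between Cdx2 and Cdx4, as a description only. In bulk RNA fewer expressing cells and less RNA per cell cannot be told apart, so the level of 15.4 or 48.55 TPM of Cdx1 does not say how many d3ko cells expressed it.

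Marker levels moved with Cdx1 at day 3. The summed TPM of 8 pluripotency markers was 667.84, 991.58 and 568.8 in d3con replicates 1, 2 and 3, and 15544.5, 2698.64 and 17529.07 in d3ko. The d3ko library with the least Cdx1 thus had the least of these transcripts, and the d3con library with the most Cdx1 had the most. At day 0 the sum was 13854.46 to 15753.94, and in the doxycycline line, where Cdx1 was at or under 1.55 TPM, it was 4260 to 7942.21. In edgeR's quasi-likelihood test with Benjamini-Hochberg adjustment, called at an adjusted p under 0.05 and a log2 fold change over 1 in size, 6 of the 8 markers were higher in d3ko than in d3con and none was lower, beside 4.75% of all genes tested called higher and 3.51% lower. With only the 6 day 3 libraries in the fit edgeR called 0 of the 8 (7 by DESeq2). With the counts of replicates 1 and 3, which share a clone, summed in each group, 0 genes were called higher and 1 lower over all genes, so no call of a higher gene between d3ko and d3con was left. The 6 markers called higher in the edgeR fit of 10 libraries included Esrrb (4.68, SE 0.65, adjusted p = 0.00938), Zfp42 (4.53, SE 0.7, adjusted p = 0.0107) and Dppa5a (4.51, SE 0.67, adjusted p = 0.0107), all ESC genes. The feeder marker sum was 304.31, 52.71 and 216.3 in d3con and 287.94, 117.26 and 365.75 in d3ko, so it was also lowest in replicate 2 of each group, yet edgeR called 0 of its 7 tested genes between them (0 at an unadjusted p under 0.05, and 0 by DESeq2). The part of these cells and markers in the Cdx1 difference was not tested.

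**Figure D2:**
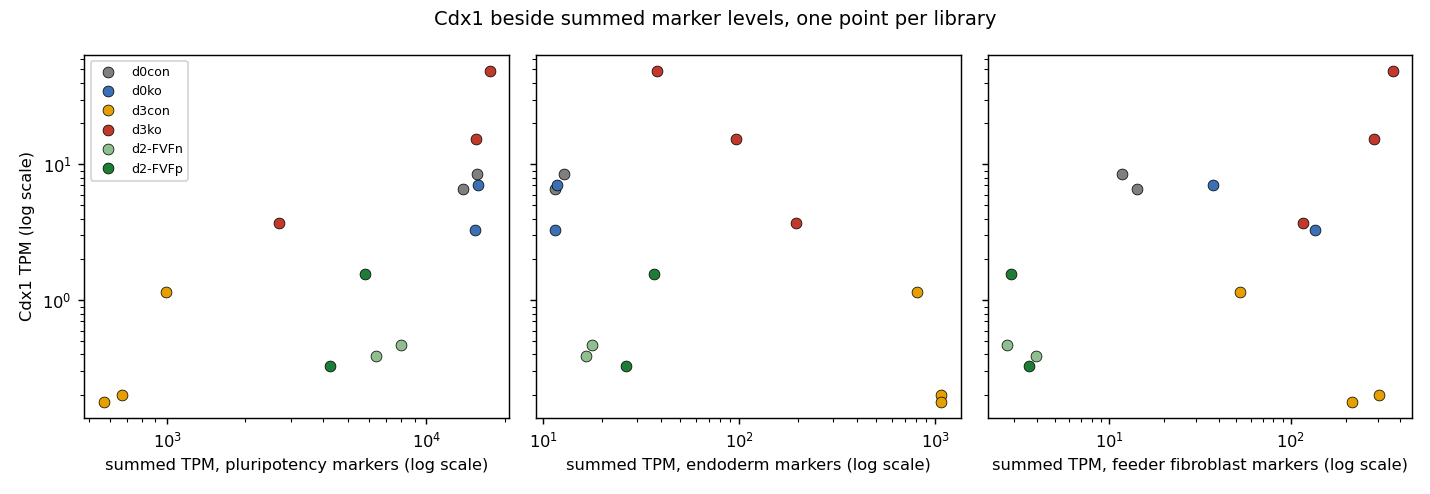
Cdx1 TPM (vertical, log scale) against the summed TPM of 8 pluripotency, 8 endoderm and 8 feeder fibroblast markers (horizontal, log scale); each point is 1 of the 14 libraries, coloured by group. Among the day 3 libraries Cdx1 was at 15.4 and 48.55 TPM where the pluripotency sum was 15544.5 and 17529.07 TPM, and at 0.18 to 3.68 TPM where that sum was 568.8 to 2698.64 TPM.

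To describe the surroundings in which Cdx genes are normally active, 80 companion genes in 6 lists were examined: posterior ligands, response genes of Wnt, Fgf and retinoic acid signalling, factors of the streak and tail bud, the other ParaHox genes, and anterior and central to posterior Hox genes. Between d3ko and d3con, 41 of them passed the filter, of which 7 were higher and 1 was lower. Over all 13899 genes tested, 4.75% were called higher (660 genes) and 3.51% lower (488 genes). The median log2 fold change was 0.85 over the tested companion genes and 0.02 over all genes tested. The ligands Fgf4 and Bmp4 were higher in d3ko. Fgf4, the Fgf that ESCs secrete, was at 2.01, 2.22 and 2.19 TPM in d3con and at 70.96, 10.82 and 124.3 TPM in d3ko (5.01, SE 0.74, on the log2 scale; edgeR adjusted p = 0.0107). Bmp4, a ligand needed for posterior mesoderm, was at 8.3, 9.34 and 4.16 TPM in d3con and at 55.13, 18.5 and 49.22 TPM in d3ko (2.49, SE 0.44, adjusted p = 0.0137). For both, as for Cdx1, replicate 2 was the lowest d3ko library.

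The response genes called higher included Etv5, an Ets factor downstream of Fgf (2.11, SE 0.44, edgeR adjusted p = 0.0209), Spry2, an inhibitor of receptor tyrosine kinase signalling (1.26, SE 0.32, adjusted p = 0.0367), Notum, a secreted enzyme that inactivates Wnt proteins (2.98, SE 0.8, adjusted p = 0.045) and Aldh1a2, which makes retinoic acid. Aldh1a2 was at 0.08, 0.76 and 0.11 TPM in d3con and at 1.81, 3.79 and 5 TPM in d3ko (3.52, SE 0.79, adjusted p = 0.0257). The gene called lower was Rarb, a retinoic acid receptor that is itself induced by retinoic acid, at 10.74, 3.85 and 12.88 TPM in d3con and at 1.01, 2.06 and 0.26 TPM in d3ko (-3.06, SE 0.81, adjusted p = 0.0437). Retinoic acid genes thus went in both directions. These 8 calls were lost in 2 other fits. With the replicates of a shared clone summed, no companion gene was called higher or lower. With only the 6 day 3 libraries in the fit, no companion gene was called in either direction (7 genes higher and 60 lower over all genes), and the adjusted p of Fgf4 became 0.053 and that of Aldh1a2 0.0925, while DESeq2 on the same 6 libraries called 8 higher and 2 lower. Without d3con replicate 3 the counts were 0 and 0, without d3con replicate 1 they were 1 and 0, and without d3con replicate 2 they were 13 and 1.

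Of the 8 streak and tail bud factors tested, the genes that mark the region where Cdx genes first come on, edgeR called 0 between d3ko and d3con (1 at an unadjusted p under 0.05, 0 by DESeq2). T (Brachyury) was at 11.39, 130.58 and 15.49 TPM in d3con and at 13.74, 211.95 and 55.69 TPM in d3ko. T was highest in replicate 2 of both groups, the d3con library with most Cdx1 but the d3ko library with least. All 3 ParaHox genes other than Cdx, Pdx1, Gsx1 and Gsx2, fell under the filter in every comparison.

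**Figure D3:**
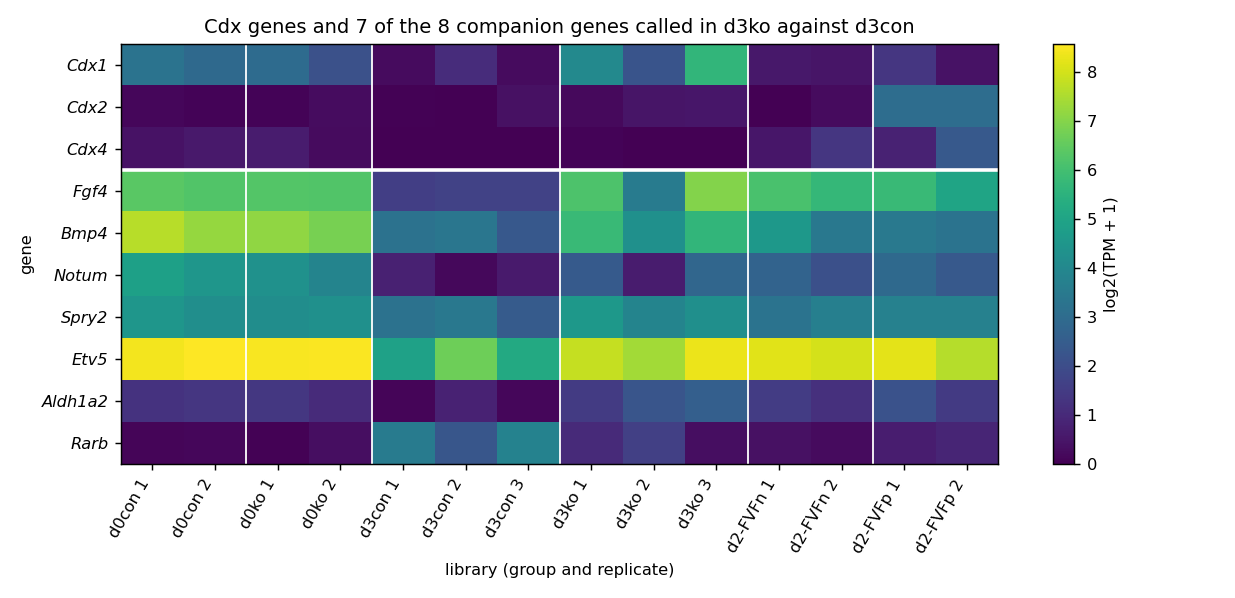
Colour scale of log2(TPM + 1) for Cdx1, Cdx2 and Cdx4 (above the white line) and for 7 of the 8 companion genes called between d3ko and d3con, in each of the 14 libraries. Fgf4 stood at 10.82 to 124.3 TPM in d3ko and at 2.01 to 2.22 TPM in d3con, and Rarb showed the opposite order.

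During differentiation the companion genes moved in both genotypes, alongside a fall of Cdx1 in controls. From d0con to d3con 13 of 41 companion genes were called higher, beside 20.6% of all genes tested (2863 genes), and 10 were called lower, beside 14.6% (2027 genes). Those higher included the streak genes Mixl1 (7.29, SE 0.62, edgeR adjusted p = 0.00015) and T (7.22, SE 1.82, adjusted p = 0.00964), the ligand Fgf8 (10.08, SE 1.16, adjusted p = 0.000335) and Cyp26a1, which degrades retinoic acid (8.4, SE 0.84, adjusted p = 0.00023). Those lower included Fgf4 (-5.4, SE 0.78, adjusted p = 0.000781) and Bmp4 (-4.76, SE 0.5, adjusted p = 0.00028). So the lowest Cdx1 levels of these clones occurred in cells in which 5 of 8 streak factors had risen.

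From d0ko to d3ko 15 of 41 companion genes were called higher, beside 11.6% of all genes tested (1613 genes), and 3 were called lower, beside 5.72% (795 genes). Of the 8 streak and tail bud factors 7 were higher, among them Mixl1 (7.8, SE 0.62, edgeR adjusted p = 0.000486), T (7.73, SE 1.79, adjusted p = 0.0129) and Tbx6 of the presomitic mesoderm (3.52, SE 1.07, adjusted p = 0.0358). Hoxb2 was called higher (4, SE 1.15, adjusted p = 0.0285), and Bmp4 (-1.78, SE 0.46, adjusted p = 0.0186), Notum and Rarg were lower. Leaving out a d0ko library reduced the 15 higher genes to 5 (without replicate 1) or 7 (without replicate 2) and the 3 lower genes to 0. Whether the change over time differed between genotypes was tested as the difference of the log2 changes. No companion gene passed (12 of 41 at an unadjusted p under 0.05, and 6 by DESeq2). Over all 13899 genes tested 0 passed in edgeR, so this fit called no gene of any kind. Of those genes 1840 were at an unadjusted p under 0.05, and 589 passed by DESeq2. For Aldh1a2, which was lower in every d3con than in every d0con library and higher in every d3ko than in every d0ko library, that difference was 3.67 (SE 1.17, edgeR adjusted p = 0.24).

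The companion genes were also compared in the cells in which Foxa2 was induced and Cdx2 was highest. Between d2-FVFp and d2-FVFn 26 companion genes passed the filter, of which 5 were called higher, beside 6.96% of all 12943 genes tested (901 genes), and 2 lower, beside 1.47% (190 genes). Cyp26a1 was at 0.59 and 0.82 TPM in d2-FVFn and at 9.46 and 8.43 TPM in d2-FVFp (3.59, SE 0.36, edgeR adjusted p = 0.00211). The T-box factor Eomes, which acts in streak and trophoblast, was at 1.09 and 0.86 TPM in d2-FVFn and at 2.98 and 3.23 TPM in d2-FVFp (1.63, SE 0.33, adjusted p = 0.0194). The posterior Hox genes called higher were Hoxb13 (2.33, SE 0.63, adjusted p = 0.0459) and Hoxc13 (2.1, SE 0.48, adjusted p = 0.0271). They were the only 2 of the 27 central and posterior Hox genes to pass the filter here. In d2-FVFn they stood at 0.22 to 0.54 TPM. For Cyp26a1 and for genes this low in d2-FVFn the filter favours those that are high in d2-FVFp. It therefore partly sets the direction of these calls. Lef1, a nuclear effector of Wnt, was at 29.7 and 28.08 TPM in d2-FVFn and at 10.03 and 5.56 TPM in d2-FVFp (-1.93, SE 0.26, adjusted p = 0.00511). The ligand Fgf17 was at 16.99 and 12.15 TPM in d2-FVFn and at 2.99 and 2.67 TPM in d2-FVFp (-2.41, SE 0.29, adjusted p = 0.0037). DESeq2 called 2 genes higher, none of them a Hox gene, and the count was 1 without d2-FVFn replicate 1, without d2-FVFn replicate 2 or without d2-FVFp replicate 2, and 3 without d2-FVFp replicate 1.

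**Figure D4:**
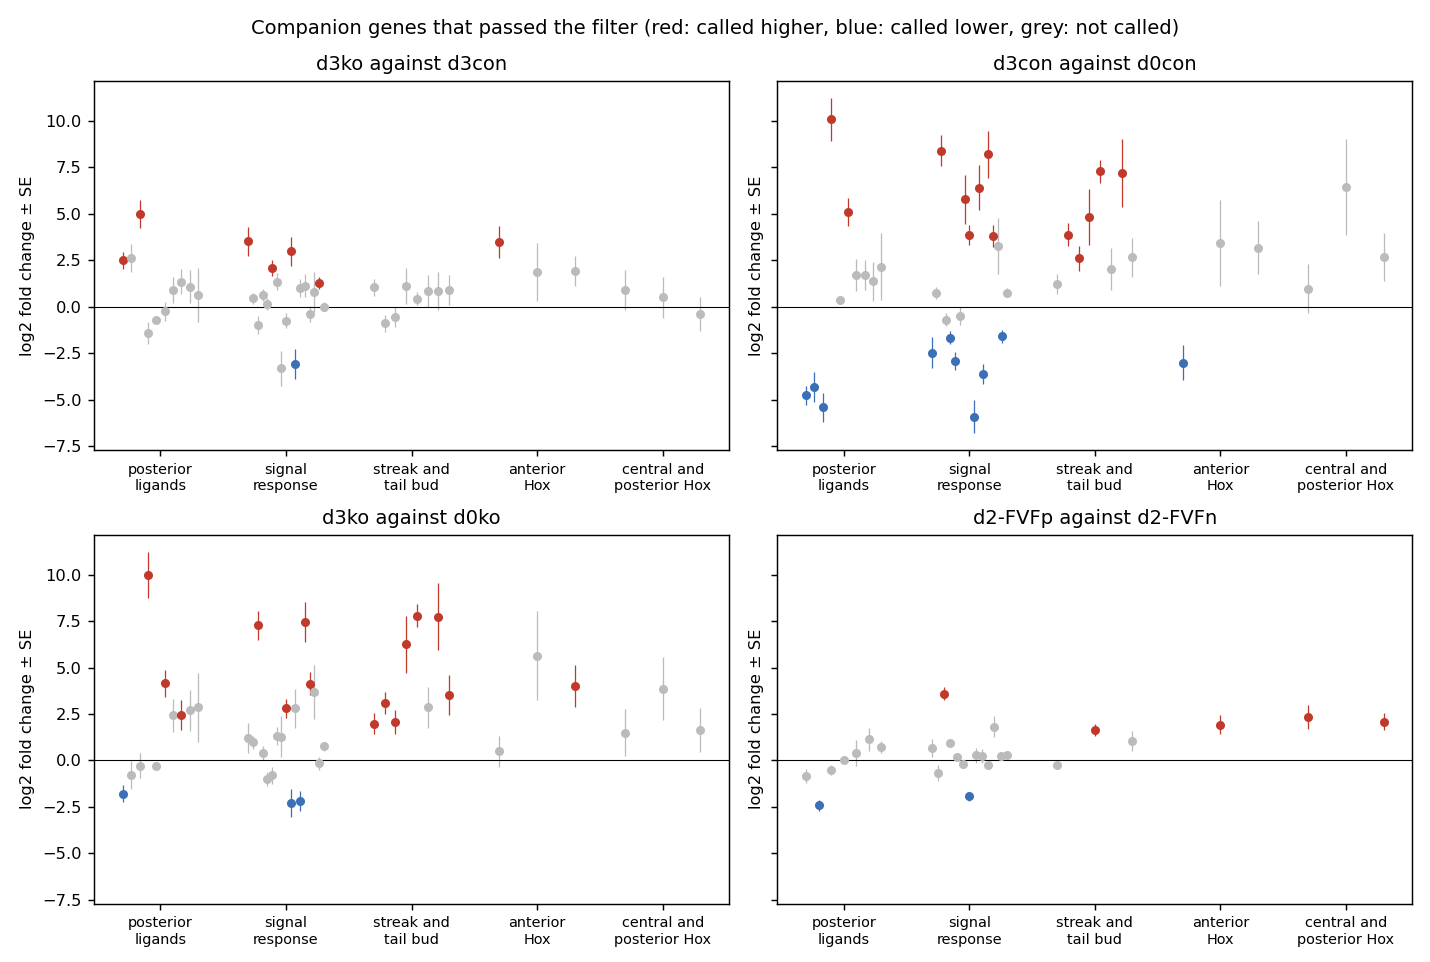
Log2 fold change ± SE (edgeR) of each companion gene that passed the filter, by list and comparison; red and blue mark genes called higher and lower. In d3ko against d3con 7 genes were higher and 1 was lower; no streak or tail bud factor was called there, whereas 5 were called higher from d0con to d3con and 7 from d0ko to d3ko.

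Hox genes, the best known targets of Cdx factors, were low in all libraries. Of 39 Hox genes, between 0 and 3 reached 1 TPM in 13 of the libraries, and 6 did in d3ko replicate 3, the library with most Cdx1. It was also the library with the highest feeder marker sum (365.75 TPM) and the most counts (27278237). The part of feeders and depth in its Hox levels was not tested. In that library the highest was Hoxb1 at 6.24 TPM. Hoxb1 was at 6.18 TPM in d3ko replicate 2 and at 3.49 TPM in d3con replicate 2. In d3ko replicate 1, where Cdx1 was at 15.4 TPM, Hoxb1 was at 0.37 TPM. A link between Cdx1 and Hoxb1 was not tested. In d2-FVFp 3 Hox genes reached 1 TPM in each library, and Hoxb13 stood at 2.3 and 1.69 TPM beside 0.54 and 0.22 TPM in d2-FVFn, while Hoxc13 stood at 1.61 and 2.03 TPM beside 0.33 and 0.47 TPM. Of the 27 central and posterior Hox genes only 3 passed the filter among the day 0 and day 3 libraries, and edgeR called 0 of them in any of the 3 comparisons (0 at an unadjusted p under 0.05 between d3ko and d3con, 1 between d3con and d0con, 0 between d3ko and d0ko). DESeq2 called 1 of them higher in d3con than in d0con and none in the other pairs.

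**Figure D5:**
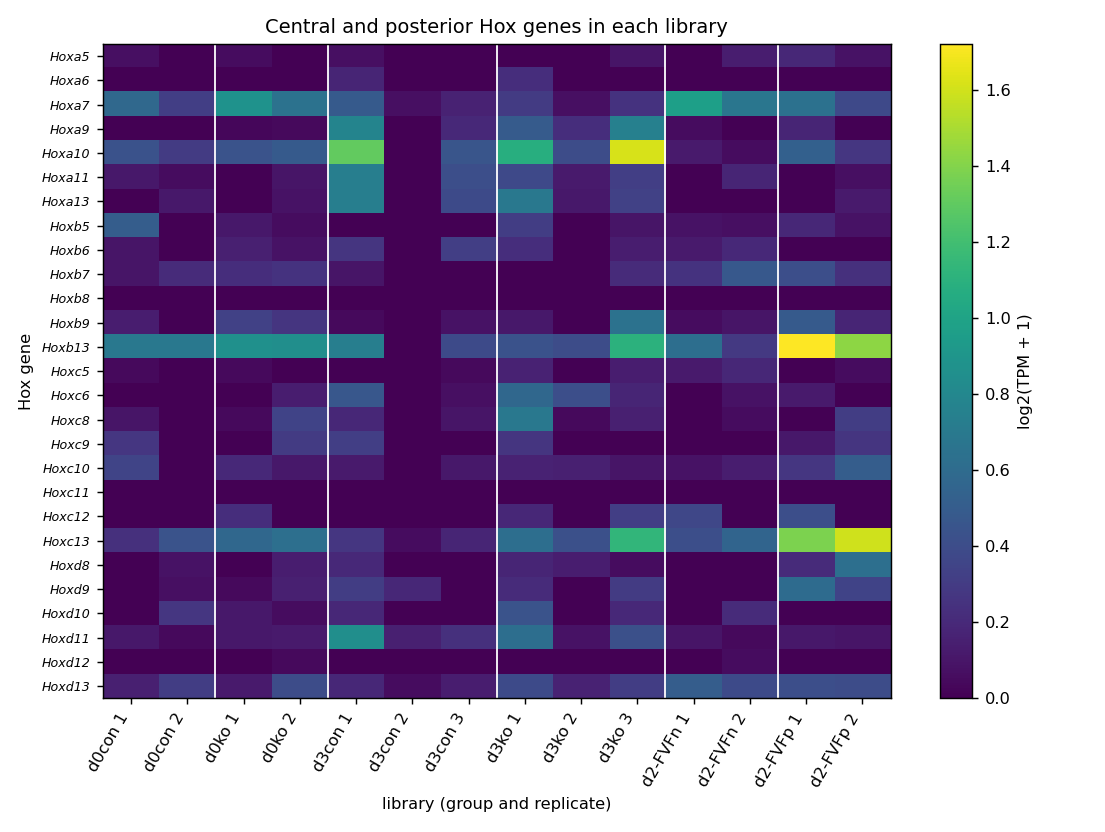
Colour scale of log2(TPM + 1) for the 27 central and posterior Hox genes in each of the 14 libraries. Most are near 0; Hoxb13 and Hoxc13 were at 1.61 to 2.3 TPM in d2-FVFp.

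Genes of the tissues in which Cdx2 is a known regulator were followed beside it. Of 8 tested trophoblast genes 3 were higher in d2-FVFp, beside 6.96% of all genes tested, and all 3 were keratins of simple epithelia: Krt7 (3.82, SE 0.31, edgeR adjusted p = 0.00128), Krt8 (3.15, SE 0.45, adjusted p = 0.0062) and Krt18 (3.54, SE 0.42, adjusted p = 0.00351). The same keratins were lower in d3ko than in d3con (log2 fold changes of -3.89 for Krt7, -2.5 for Krt8 and -2.96 for Krt18). In those groups Cdx2 was at most at 0.44 TPM, near the limit of detection. A link between these keratins and Cdx2 was not tested. Apart from Eomes, which was called higher as given above, no trophoblast regulator examined was called in the 4-library edgeR fit, beside 7.29 and 7.44 TPM of Cdx2. Of the 8 tested trophoblast genes 5 were at an unadjusted p under 0.05 in that fit. With the replicate number added as a block 4 were called higher. Tfap2a was at 0.04 and 0.07 TPM in d2-FVFn and at 0.43 and 0.48 TPM in d2-FVFp, without overlap but under the filter and so not tested. Tfap2c was at 35.05 and 25.41 TPM in d2-FVFn and at 28.23 and 19.83 TPM in d2-FVFp (-0.38, SE 0.23, adjusted p = 0.293), Elf5 was at 0 TPM in both d2-FVFp libraries, Gata3 was at 0.92 and 2.02 TPM (1.42, SE 0.58, adjusted p = 0.132), and Prl3d1 and Tpbpa, markers of placental cells, were at 0 TPM in all 4 libraries. Of 5 tested intestinal genes edgeR and DESeq2 called 0 between d2-FVFp and d2-FVFn (0 at an unadjusted p under 0.05). Fabp2, an intestinal fatty acid binding protein, was at 0 TPM in both d2-FVFn libraries and at 0.58 and 1.59 TPM in d2-FVFp, under the filter.

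The genes beside the Cdx loci were compared to see whether their levels moved too. Nearest to Cdx2 were Pdx1, Gsx1 and Polr1d on the side of lower coordinates and Urad, Flt3 and Pan3 on the other. In d2-FVFp Pdx1, a pancreatic ParaHox factor, averaged 0.67 ± 0.566 TPM (SD, n = 2) and Urad averaged 0.325 ± 0.205 TPM (SD, n = 2), against 0.085 ± 0.00707 and 0 TPM in d2-FVFn. Both fell under the filter. Polr1d, an RNA polymerase subunit, and Pan3, a deadenylase subunit, were tested and not called (log2 fold changes -0.09, SE 0.13, and 0.41, SE 0.24). Next to Cdx1, Slc6a7, a proline transporter gene 4446 bases away, was listed at 0 TPM in all 3 d3con libraries and averaged 0.447 ± 0.373 TPM (SD, n = 3) in d3ko. It was called higher (7.09, SE 1.64, edgeR adjusted p = 0.0373). Camk2a, a kinase gene 30710 bases away on the same side, averaged 0.0367 ± 0.0153 TPM in d3con and 0.39 ± 0.185 TPM in d3ko (SD, n = 3) and was called higher (3.17, SE 0.61, adjusted p = 0.0169). Both calls rest on low levels. From d0ko to d3ko Slc6a7 changed little (0.02, SE 0.999, edgeR adjusted p = 0.99), and Camk2a fell (-1.72, SE 0.54, adjusted p = 0.0388). On the other side Pdgfrb, a growth factor receptor gene 8928 bases away, was not called (1.19, SE 0.48, adjusted p = 0.141), nor was Hmgxb3 (0.13, SE 0.17, adjusted p = 0.662), nor was Arsi on the first side (-1.04, SE 0.84, adjusted p = 0.458), and Csf1r fell under the filter. The neighbours of Cdx4 that passed the filter between d2-FVFp and d2-FVFn were 4930519F16Rik, Nap1l2, Chic1 and Tsx, and none was called. For Tsx, a testis-expressed gene, the fit gave -2.08 on the log2 scale (SE 0.63, adjusted p = 0.0627). Dmrtc1a and Zcchc13 stood at or under 0.145 TPM on average in every group.

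The genes with the profile most like each member were found by Pearson r of log2(TPM + 1) over the 14 libraries among 14296 genes that reached 1 TPM in at least 2 libraries. These values are descriptions over libraries that share lines and clones. Like Cdx1 were Pim1, a serine/threonine kinase gene (r = 0.963), Mobp (0.947), Pou2f3, a POU factor gene (0.94), Ldlrad4 (0.923) and Crtac1 (0.921). Pim1 averaged 24.64 TPM in d0con, 21.78 TPM in d0ko, 7.22 TPM in d3con, 50.22 TPM in d3ko, and 6.88 and 6.57 TPM in d2-FVFn and d2-FVFp, the same fall in controls and high level in the knockout as Cdx1. Like Cdx2 were genes seen almost only in d2-FVFp: Bhmt, a liver enzyme of homocysteine metabolism (0.988), Mir142b (0.987), Fgb, the fibrinogen beta chain (0.983), Tff1, a secreted trefoil peptide (0.983), and Kng2, a kininogen (0.983). Such r values rest on the 2 d2-FVFp libraries, and Spearman rho was 0.328 to 0.686. Kng2 has a close paralog and Mir142b is a short hairpin gene, so their levels are uncertain. Like Cdx4 were Gpr75 (0.961), Arg2, an arginase (0.942), Vimp (0.917), Edn1, the endothelin 1 precursor (0.913), and Ufm1 (0.913), all highest on average in d2-FVFp.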

How the data were processed

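Cherry-negative or Venus-positive/negative sorted cells were profiled by low-input cDNA amplification and single-end sequencing. The authors aligned reads with STAR to mm10 and counted them per gene with RSEM, separately for each library; versions are not given in the sources used here. The deposited expected counts (RSEM's estimated counts) were rounded to whole numbers and tested with edgeR 4.0.16 (R 4.3.3): quasi-likelihood F test, TMM scaling, genes with at least 1 CPM in at least 2 libraries of the fit, Benjamini-Hochberg adjustment over all genes tested, and calls at an adjusted p under 0.05 and a log2 fold change over 1 in size. An SE was obtained as the fold change (log2) over the root of F. A joint fit held the 10 day 0 and day 3 libraries with a coefficient per group, and another the 4 doxycycline libraries. The study's own tests were pairwise DESeq2. Levels are the deposited TPM, which the authors' RSEM run scales for length; the deposited effective lengths show 75-base reads in replicate 1 of d3con and d3ko and 50-base reads elsewhere, whose effect on the counts was not tested. Intervals and floors (3 counts) cover counting error only.

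The members and gene lists were chosen with earlier results of these data known. Named genes were the members, the called genes of each list with the largest fold changes (up to 4 for each companion list, 3 for others), the 3 nearest protein-coding genes on each side of each member, and the 5 genes most alike; genes given for a role or as counts beyond that, among them T in d3ko against d3con, Elf5, Gata3, Prl3d1, Tpbpa, Fabp2 and Hoxb1, were chosen after their values were seen. Same-numbered libraries of day 0 and day 3 share a clone for numbers 1 and 2 (clone names of the deposited files), although their deviations from the group means did not correlate (r = -0.063 to 0.047 over 13899 genes). The block lost none of 23 calls from d0con to d3con and none of 18 from d0ko to d3ko. Alternatives were DESeq2 1.42.0, limma 3.58.1 on log2(TPM + 1), other scaling, filters and thresholds, only the groups compared, summed clones and leaving out each library. The edgeR code was tested on simulated data. Promoter sequences were not used for Cdx1. Values of some list genes are not reported here, although the counts include them.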

Additional observations from a re-analysis of the deposited data

How the results depend on the processing

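Of 172 alternative values of the counts of companion genes called and of the Cdx log2 fold changes, 132 stayed within 1.5 times the count or within the replicate SD, 40 moved beyond that and 0 reversed. DESeq2 on only the groups compared was chosen after seeing the data. The cause of these shifts was not tested, except that fewer libraries and stricter thresholds leave fewer calls by construction. Between d3ko and d3con, 7 companion genes were higher and 1 was lower. The higher count became 0 at an adjusted p under 0.01, 0 with only the groups compared and 0 with replicates of a shared clone summed (then 0 higher and 1 lower over all genes), and ranged from 0 to 13 when a library was left out. The lower count became 0 under the same 3 settings, 2 with DESeq2, 2 with DESeq2 on only the groups compared, 2 with no filter and 2 with limma on log2(TPM + 1), and ranged from 0 to 2 when a library was left out. From d0ko to d3ko the 15 higher became 8 and the 3 lower became 0 at an adjusted p under 0.01, and the lower became 1 with only the groups compared; leaving out a library gave 5 to 15 higher and 0 to 4 lower. From d0con to d3con leaving out a library gave 10 to 15 higher and 7 to 11 lower. Between d2-FVFp and d2-FVFn the 5 higher became 2 with DESeq2, 8 with no filter, 2 with a mean count of at least 50 and 1 at an adjusted p under 0.01, and leaving out a library gave 1 to 3 higher and 2 to 2 lower.

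Of the list genes called, 129 over the 4 comparisons, 1548 of 1854 values under the alternatives were still called and 0 reversed. Where leaving out a library left 1 in its group, that library was taken to vary like the other groups. The log2 fold change of Cdx1 between d3ko and d3con was 3.43 with limma on log2(TPM + 1), a scale that compresses low levels, and 4.26 to 6.83 when a library was left out. From d0con to d3con it was -2.55 with limma and -5.45 to -3.69 when a library was left out, and from d0ko to d3ko 0.72 to 2.62. That of Cdx2 between d2-FVFp and d2-FVFn was 2.94 with limma and 5.28 to 10.01 without a d2-FVFn library, and that of Cdx4 0.69 to 2.03 when a library was left out; Cdx4 had no value at a mean count of at least 50.

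With the replicate block 6 companion genes were higher and 1 lower between d3ko and d3con, 14 and 10 from d0con to d3con, 17 and 4 from d0ko to d3ko, and 7 and 2 between d2-FVFp and d2-FVFn. The log2 fold changes of Cdx1 under the block were 4.9, -4.31 and 1.21, that of Cdx2 6.12 and that of Cdx4 1.21. Between d3ko and d3con the labels give no pairing by number, although replicate 1 of both groups had 75-base reads. Same-numbered deviations correlated with r = 0.571, 0.294 and 0.001 for replicates 1, 2 and 3. The block kept 6 of 8 calls, lost 2, among them Rarb, and added Fgf8. Over all genes it left 415 called higher and 401 lower, beside 660 and 488 without it. In the doxycycline line the r of same-numbered deviations was 0.323, and the block kept 7 of 7 calls. Depth limits Cdx2 and Cdx4 at day 0 and day 3, where 3 counts are 0.0944 to 0.211 TPM.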

Other observations

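Blood and vessel precursor genes, a mesodermal setting in which Cdx factors are known to act, were mixed beside the Cdx1 levels. Between d3ko and d3con edgeR called 2 of 9 higher and 1 lower, beside 4.75% and 3.51% of all genes tested. With only the 6 day 3 libraries in the fit these counts were 0 and 0 (3 and 1 by DESeq2). Pecam1, an endothelial adhesion molecule that ESCs also express, was at 2.27, 1.08 and 2.9 TPM in d3con and at 50.3, 6.71 and 78.67 TPM in d3ko (log2 fold change 4.44, SE 0.79, adjusted p = 0.0137), with its lowest d3ko value in replicate 2, as for Cdx1. Gata2, a stem and progenitor factor, was at 2.03, 0.26 and 0.51 TPM in d3con and at 7.44, 2.56 and 14.51 TPM in d3ko (3.07, SE 0.82, adjusted p = 0.0447). Gata1, the erythroid factor, was at 62.7, 23.17 and 74.6 TPM in d3con and at 2.64, 5.13 and 0.85 TPM in d3ko (-4.25, SE 0.65, adjusted p = 0.0107). Between d2-FVFp and d2-FVFn edgeR called 1 of 6 tested genes higher and 1 lower, beside 6.96% and 1.47% of all genes tested. DESeq2 also called 1 higher and 1 lower. In the edgeR fit Runx1 was higher (3.12, SE 0.53, adjusted p = 0.0113) and Etv2 was lower (-1.51, SE 0.38, adjusted p = 0.038). A link to Cdx2 was not tested.

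Of 5 tested intestinal genes edgeR called 2 higher and 0 lower in d3ko than in d3con, beside 4.75% and 3.51% of all genes tested. DESeq2 called 2 higher and 2 lower. With only the 6 day 3 libraries in the fit edgeR called 0 (2 higher and 2 lower by DESeq2). Among those called higher, Gpa33, an intestinal surface antigen, was high in the day 0 ESCs and low in d3con, as Cdx1 was. It was at 133.81 to 153.45 TPM in the 4 day 0 libraries, at 5.77, 5.4 and 5.71 TPM in d3con and at 163.86, 20.05 and 212.77 TPM in d3ko (4.56, SE 0.72, edgeR adjusted p = 0.0107). In the doxycycline line Gpa33 was at 16.67 to 32.43 TPM, where Cdx1 was at 0.33 to 1.55 TPM.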
